A study of Mus musculus with 10 samples.

Results

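The tumour necrosis factor (TNF) superfamily of ligands and receptors was examined in splenic B cells of mice with liver fibrosis and of control mice. Its members were taken as the protein-coding genes with a Tnfsf or Tnfrsf symbol plus Tnf, Lta, Ltb, Ltbr, Cd40, Cd40lg, Cd27, Cd70, Fas, Fasl and Ngfr. This gave 42 genes, 17 ligands and 25 receptors, of 54532 genes in the count table, 22046 of them protein-coding. The fibrosis group (5 libraries) came from mice given carbon tetrachloride (CCl4) into the peritoneal cavity for 4 weeks. CCl4 is toxic to liver cells, and repeated doses are a common rodent model of scarring of the liver. Controls (5 libraries) were wildtype animals. Strain, age, any vehicle given to the controls, pooling of animals and the method of B cell isolation are not stated in the labels. The comparison addresses whether B cells of the spleen take on an inflammatory expression profile in this model.

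TNF superfamily ligands are mostly trimeric proteins on the cell surface or released from it, and they act by clustering their receptors. One set of receptors carries a death domain and can start apoptosis, and another recruits TRAF adaptor proteins that lead to NF-kB and kinase signalling. In B cells the family is best known for survival through BAFF, for T cell help through CD40, and for the lymphotoxins, which B cells make and which maintain the compartments of the spleen. BAFF and APRIL are made mainly by myeloid and stromal cells, and their receptors sit on B cells and plasma cells.

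Of the 42 members, 35 had enough counts to be tested, 12 ligands and 23 receptors. In edgeR's quasi-likelihood test 15 of the 35 were called, meaning an adjusted p under 0.05, with 11 higher in fibrosis and 4 lower. The share called among all 14283 tested genes was 35.7%, with 18.6% higher and 17.2% lower, beside 42.9% of the tested members. The members that rose were the ligands Ltb, Lta and Tnfsf10 and the receptors Tnfrsf9, Fas, Tnfrsf4, Ngfr, Tnfrsf18, Tnfrsf22, Tnfrsf11a and Cd40. Tnf, Tnfrsf19, Tnfrsf14 and Tnfrsf21 fell. The median difference over the 35 members was 0.24 on the log2 scale, fibrosis minus control, against 0.045 over all tested genes. In 13 tested members, 12 of them called, no fibrosis library overlapped a control library, and the share of all tested genes without overlap was 25.4%.

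**Figure D1:**
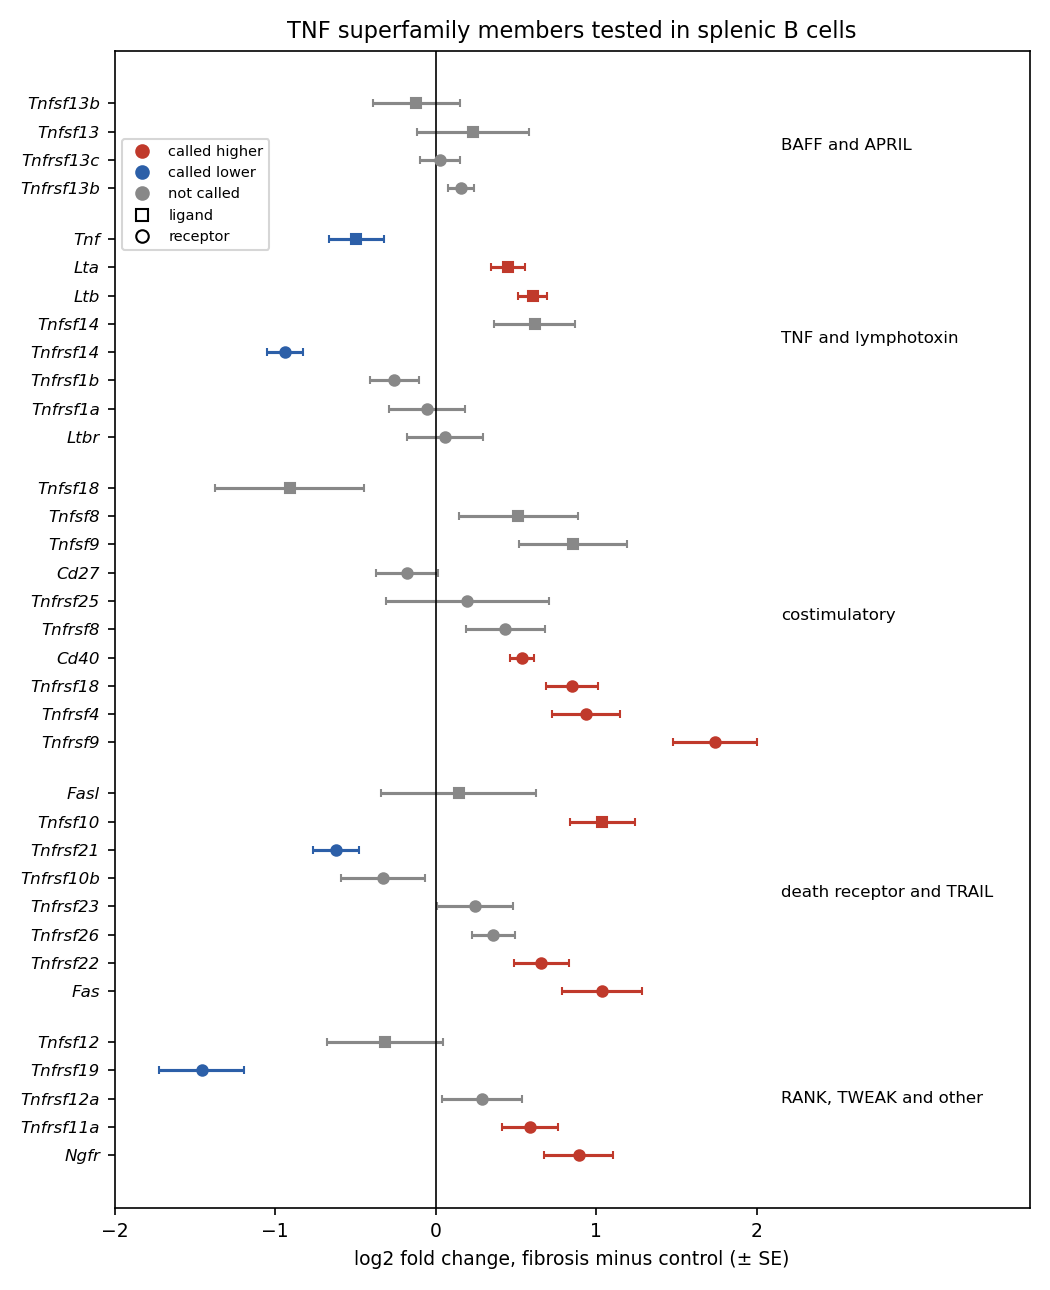
Difference between fibrosis and control for the 35 tested members, as log2 fold change (horizontal axis) with its standard error, grouped by ligand and receptor family. Squares are ligands, circles are receptors, and colour marks the call. The 11 higher members lie between 0.45 and 1.74, the 4 lower members between -1.46 and -0.49, and the 4 BAFF and APRIL members are grey.

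Libraries held 13439100 to 17069393 counts in fibrosis and 15912080 to 17954551 in the controls. All 10 B cell marker genes were expressed, and their summed level was 10718 to 16073 CPM in fibrosis (CPM are counts scaled to a common library size) and 11985 to 13507 in the controls. Fibrosis libraries 4 and 5 had the lowest B cell sums, and their neutrophil marker sums of 3272 and 4211 CPM were above those of the other 8 libraries, 335 to 1436. Of the other cell types, all 6 platelet and megakaryocyte markers and 6 of 9 dendritic cell markers were higher in fibrosis, and all 6 cycling cell markers and 5 of 8 erythroid markers were lower. Called higher were also 3 of 10 B cell, 1 of 10 T cell, 3 of 8 NK cell, 1 of 6 plasma cell and 1 of 2 tested stromal and endothelial markers. The last was Pecam1, at 225 CPM on average in fibrosis, against 2.43 CPM for Cdh5, which was not called. Of 9 macrophage and monocyte markers edgeR and DESeq2 called 0, with 0 at an unadjusted p under 0.05, and limma voom called 4, all lower. Of 8 neutrophil markers each tool called 0, with 2 at an unadjusted p under 0.05. Without fibrosis libraries 4 and 5, edgeR called 8 of the 9 macrophage markers lower and 9 of the 10 B cell markers higher. Among the members, 12 were then called higher and 4 lower. These are bulk libraries, so fewer cells of a type and less RNA per cell cannot be told apart. With scaling by library size alone, the median over all genes moved by -0.11 and the calls over all genes went from 2654 higher and 2451 lower to 1777 higher and 3306 lower. The members were still 11 higher and 4 lower under that scaling.

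Levels of different genes were compared as FPKM, which divides counts by gene length. Ltb, the lymphotoxin beta subunit, was by this measure the most abundant member, at 612 ± 61.8 FPKM in fibrosis and 407 ± 25.0 in the controls (SD, n = 5 each). It made up 93.9% of the summed FPKM of the 17 ligands, averaged over all libraries. The most abundant receptors were the BAFF receptor gene Tnfrsf13c (96.4 ± 14.9 and 95.7 ± 13.6 FPKM) and Tnfrsf13b, which encodes TACI (73.9 ± 7.29 and 67.1 ± 3.48 FPKM), followed by the TNF receptor gene Tnfrsf1b (47.4 ± 7.63 and 57.5 ± 12.1 FPKM). Averaged over the 10 libraries, 8 of the 25 receptors were over 10 FPKM, 10 were between 1 and 10, and 7 were at 1 or less. Only 2 of the 17 ligands, Ltb and Lta, were over 10 FPKM, and 10 were at 1 or less. The summed FPKM of the ligands was 648 ± 64.3 in fibrosis and 438 ± 26.5 in the controls, a sum that Ltb dominates. For the receptors it was 366 ± 21.5 and 374 ± 4.47.

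**Figure D2:**
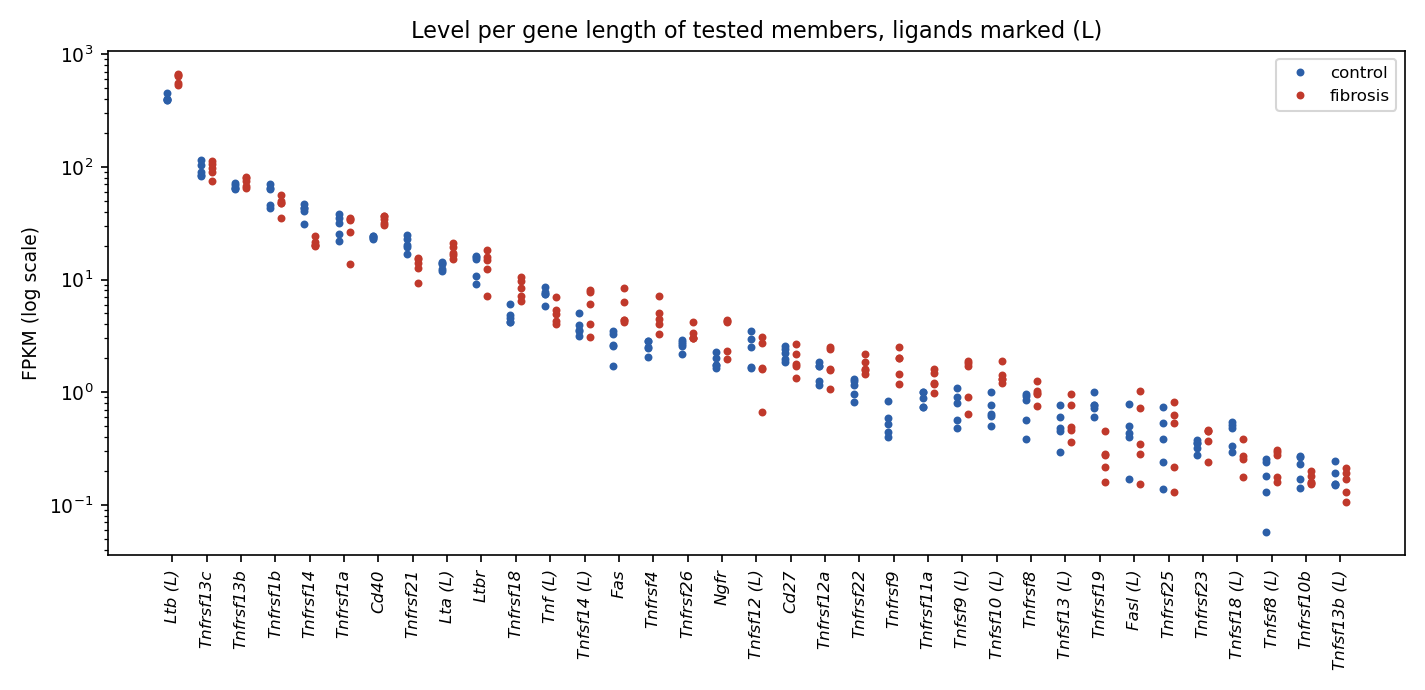
Level per gene length of the 35 tested members in each library, as FPKM on a log axis, ordered by the mean of all libraries. Each point is 1 library, and (L) marks ligands. The log axis leaves out a value of 0, that of Tnfsf18 in fibrosis library 4. Ltb lies above all receptors in every library, and the ligands of the BAFF receptors, Tnfsf13b and Tnfsf13, lie below 1 FPKM.

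Of the 4 tested BAFF and APRIL genes, edgeR and DESeq2 called 0, with 0 at an unadjusted p under 0.05, and limma voom called 1, Tnfrsf13b. The share that edgeR called among all tested genes was 35.7%, and with only 4 genes a count of 0 says little. BAFF, from Tnfsf13b, and APRIL, from Tnfsf13, bind the BAFF receptor (Tnfrsf13c, BAFF only), TACI (Tnfrsf13b, both) and BCMA (Tnfrsf17, chiefly APRIL), which serve naive B cells, activated and marginal zone B cells, and plasma cells in that order. Tnfrsf13c stood at 195, 234, 220.5, 156 and 196 CPM in fibrosis libraries 1 to 5 and at 174, 170, 238, 185 and 214 in control libraries 1 to 5. The ranges lay over each other, and the difference was 0.03 ± 0.12 (SE) on the log2 scale (edgeR, adjusted p = 0.883). Tnfrsf13b stood at 228, 227, 216, 187 and 206 CPM in fibrosis and at 180.1, 184, 207, 186 and 196 in the controls. Fibrosis libraries 1 to 3 held its 3 highest values, but the groups overlapped (0.16 ± 0.08, adjusted p = 0.156). Without fibrosis libraries 4 and 5, Tnfrsf13b was called higher, at 0.24 with an adjusted p of 0.0235.

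The transcripts of both ligands were scarce in these libraries. Tnfsf13b stood at 1.28, 0.739, 0.897, 1.19 and 1.56 CPM in fibrosis and 1.04, 1.32, 1.06, 1.70 and 1.03 in the controls. Tnfsf13 stood at 0.733, 0.801, 0.598, 1.27 and 1.69 CPM in fibrosis and 0.984, 1.27, 0.798, 0.735 and 0.485 in the controls. For both the groups overlapped, with differences of -0.12 ± 0.27 (edgeR, adjusted p = 0.765) and 0.23 ± 0.35 (adjusted p = 0.638). Tnfsf13 shares its locus with the Tnfsf12-Tnfsf13 fusion gene Tnfsfm13 and with an antisense gene, so its reads are uncertain. Tnfrsf17, the plasma cell receptor, had 11, 6, 5, 4 and 7 counts in fibrosis and 8, 15, 4, 15 and 9 in the controls, too few for the test.

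Among the TNF and lymphotoxin genes, both lymphotoxin subunits rose while Tnf fell. Lymphotoxin alpha (Lta) is secreted as a homotrimer that binds the TNF receptors, or is held at the membrane by lymphotoxin beta (Ltb), a form that signals through Ltbr. Ltb stood at 998, 994, 819.6, 989.8 and 901 CPM in fibrosis and at 589, 610.2, 605, 684 and 605 in the controls. Every fibrosis library was above every control library, with means of 940.5 ± 78.7 and 619 ± 37.3 CPM (SD, n = 5 each). The rise was 0.60 ± 0.09 on the log2 scale (edgeR, adjusted p = 0.000239). Lta stood at 26.6, 29.3, 24.2, 23.1 and 22.4 CPM in fibrosis and at 17.2, 16.4, 19.6, 18.8 and 19.9 in the controls. Its groups did not overlap either, and it rose by 0.45 ± 0.10 (adjusted p = 0.00441). The ratio of Ltb to Lta in FPKM was 30.9 to 39.1 in fibrosis and 27.8 to 33.9 in the controls, so the ranges of the ratio overlapped.

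Tnf, the founding cytokine of the family, stood at 8.68, 7.08, 8.14, 6.74 and 12.4 CPM in fibrosis and at 13.9, 9.46, 12.3, 12.2 and 12.7 in the controls. In 4 of 5 fibrosis libraries it was below every control, and fibrosis library 5 was at the control level. The difference was -0.49 ± 0.17 (edgeR, adjusted p = 0.0383). This call was near the threshold. It was lost without fibrosis library 1, 2 or 4 and without control library 1, 3, 4 or 5. In those runs the difference was still -0.50 to -0.42, with adjusted p of 0.0545 to 0.0937. The difference was -0.66 without fibrosis library 5 (edgeR, adjusted p = 0.00430) and -0.60 without fibrosis libraries 4 and 5 (adjusted p = 0.00763). The ratio of Tnf to Lta in FPKM was 0.275, 0.204, 0.283, 0.246 and 0.466 in fibrosis and 0.680, 0.487, 0.531, 0.547 and 0.540 in the controls. These ratios did not overlap between the groups, but they set a called fall over a called rise and are no separate evidence.

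Ltb, Tnf and Lta lie side by side within the major histocompatibility complex, from position 35194439 to 35205351 of chromosome 17 (GRCm38), with Ltb on the opposite strand to the other two. The 250 bases before each RefSeq start (GRCm38.p6) are shown, written along the gene, because these 3 neighbours did not move in one direction. The last sequence is the second of the RefSeq windows of Tnfrsf9, the tested member with the largest rise. Capitals mark matches on either strand to any of 3 motifs: the NF-kB motif of 10 bases, the AP-1 motif TGANTCA and the TATA box letters TATAAA.
Ltb, chr17:35194257-35194506, plus strand: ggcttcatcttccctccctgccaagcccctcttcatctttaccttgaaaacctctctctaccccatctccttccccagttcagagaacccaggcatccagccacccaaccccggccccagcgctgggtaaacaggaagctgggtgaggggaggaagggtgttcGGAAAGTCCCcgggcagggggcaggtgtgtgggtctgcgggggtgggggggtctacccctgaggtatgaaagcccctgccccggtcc
Tnf, chr17:35202008-35202257, minus strand: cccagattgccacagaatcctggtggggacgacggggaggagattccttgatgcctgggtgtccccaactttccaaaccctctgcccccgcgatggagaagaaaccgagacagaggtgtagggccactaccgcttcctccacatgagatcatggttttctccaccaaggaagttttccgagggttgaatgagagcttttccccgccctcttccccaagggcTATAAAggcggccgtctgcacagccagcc
Lta, chr17:35205352-35205601, minus strand: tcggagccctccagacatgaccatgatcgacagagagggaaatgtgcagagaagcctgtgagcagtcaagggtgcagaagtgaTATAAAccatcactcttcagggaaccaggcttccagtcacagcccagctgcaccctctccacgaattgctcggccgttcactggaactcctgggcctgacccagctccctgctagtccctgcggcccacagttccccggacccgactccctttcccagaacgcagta
Tnfrsf9, chr4:150927749-150927998, plus strand: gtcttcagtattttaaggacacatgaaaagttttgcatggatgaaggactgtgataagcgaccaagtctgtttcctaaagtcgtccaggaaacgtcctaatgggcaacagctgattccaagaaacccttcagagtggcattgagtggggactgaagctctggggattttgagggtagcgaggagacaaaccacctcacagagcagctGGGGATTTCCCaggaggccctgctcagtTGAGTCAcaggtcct
The Ltb stretch holds an NF-kB match that begins 87 bases before the start, read on the reverse strand. The Tnf stretch holds TATAAA 29 bases before its start and the Lta stretch 167 bases before. The Tnfrsf9 stretch holds a run in which 2 NF-kB matches overlap, 43 and 42 bases before the start, and an AP-1 match 15 bases before it. The first RefSeq window of Tnfrsf9, which is not shown, held 0 matches to each of the 3 motifs. Matches to different motifs did not overlap in these stretches.

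RefSeq windows of 300 bases, 250 before to 50 after a start, were found for 32 of the 42 members. The NF-kB motif was in a window of 3 of these 32 (Ltb, Tnfrsf8 and Tnfrsf9), in windows of 5.14% of all genes and of 6.19% of tested genes, and in 4.51% of all windows. AP-1 was in windows of 6 members (Tnfsf13, Tnfsf13b, Tnfsf14, Tnfrsf8, Tnfrsf9 and Fas), of 8.97% of all genes and of 6.39% of tested genes, and in 7.81% of all windows. The TATA box was in windows of 6 members (Tnf, Lta, Tnfsf18, Tnfsf11, Tnfrsf17 and Tnfrsf23), of 15.7% of all genes and of 8.77% of tested genes, and in 13.6% of all windows. Of the members with a window, 2 of the 9 called higher, 0 of the 4 called lower and 1 of the 16 not called had an NF-kB match. A match describes the letters of a window and does not show that a factor binds there.

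Of the receptors for these ligands only Tnfrsf14 was called. It encodes HVEM, which binds the ligand LIGHT (Tnfsf14), lymphotoxin alpha and the inhibitory receptor BTLA. Tnfrsf14 stood at 28.1, 29.1, 35.3, 29.3 and 32.7 CPM in fibrosis and at 58.4, 62.5, 62.4, 45.1 and 67.3 in the controls. Every fibrosis library was below every control, and Tnfrsf14 fell by 0.94 ± 0.11 on the log2 scale (edgeR, adjusted p = 6.48e-05). Its ligand gene Tnfsf14 was 10.9 ± 4.30 CPM in fibrosis and 7.08 ± 1.31 in the controls, a difference of 0.62 ± 0.25 that was not called (adjusted p = 0.0732). Fibrosis libraries 4 and 5 held its highest values, 14.99 and 15.3 CPM, and without them the difference was 0.20 (adjusted p = 0.511). It was called without fibrosis library 2 (0.72, adjusted p = 0.0430) or 3 (0.76, adjusted p = 0.0134).

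The TNF receptors and the lymphotoxin beta receptor did not pass the test. Tnfrsf1a, the widely expressed death domain receptor, stood at 89.4, 69.2, 36.3, 91.4 and 94.2 CPM in fibrosis and at 81.7, 91.5, 57.7, 98.1 and 65.5 in the controls (-0.05 ± 0.24, edgeR, adjusted p = 0.885). Tnfrsf1b, the TNF receptor without a death domain, stood at 209, 183, 136, 187 and 205 CPM in fibrosis and at 266, 248, 169, 242 and 173 in the controls (-0.26 ± 0.15, adjusted p = 0.204). Ltbr stood at 34.7, 29.4, 17.2, 44.0 and 40.1 CPM in fibrosis and at 35.7, 37.6, 21.8, 38.2 and 25.3 in the controls (0.06 ± 0.24, adjusted p = 0.873). All 3 receptors were lowest in library 3 of each group. Those libraries had the lowest summed macrophage and monocyte markers of their groups, 1562 CPM against 2285 to 5274 in the other fibrosis libraries and 2995 CPM against 3387 to 4884 in the other controls. The part of such cells in these levels was not tested.

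Of the 14 costimulatory genes 10 could be tested, all 7 receptors and 3 of 7 ligands. This family serves contacts between antigen-presenting cells and T cells, with OX40 (Tnfrsf4), GITR (Tnfrsf18), 4-1BB (Tnfrsf9) and CD27 mainly known from T cells and CD40 from B cells and dendritic cells. Of the 10 tested members 4 (40%) were called, near the 35.7% of all tested genes. The 4 were receptors, and all were higher. Cd40 stood at 123, 118, 125, 106 and 115 CPM in fibrosis and at 77.6, 80.6, 83.4, 82.7 and 80.02 in the controls. The groups were far apart relative to their spread (117 ± 7.48 against 80.9 ± 2.29 CPM, SD, n = 5 each), and Cd40 rose by 0.54 ± 0.07 (edgeR, adjusted p = 0.000135).

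Tnfrsf9 had the largest rise of all 35 tested members. It stood at 5.38, 3.26, 6.94, 3.97 and 5.86 CPM in fibrosis and at 1.20, 1.596, 1.44, 2.26 and 1.09 in the controls, a ratio of means of 3.35. No libraries overlapped, and the rise was 1.74 ± 0.26 (edgeR, adjusted p = 0.000272). The gene overlaps the span of Camta1 on the other strand over 28781 bases, so without strand its reads are uncertain. Its ligand gene Tnfsf9 stood at 2.14, 2.34, 0.838, 2.46 and 1.24 CPM in fibrosis and at 1.04, 1.16, 0.745, 0.622 and 1.39 in the controls. These groups overlapped, and the difference of 0.85 ± 0.34 was not called (adjusted p = 0.0627). Without fibrosis library 3 it was called, at 1.03 (adjusted p = 0.0193). The noncoding gene Gm11110 overlaps Tnfsf9 on the other strand and had 285 counts in all against 225, so reads of Tnfsf9 are uncertain.

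Tnfrsf4 and Tnfrsf18 lie next to each other on chromosome 4 (positions 156013843 to 156028895, GRCm38) and both rose. Tnfrsf4 stood at 5.44, 4.56, 6.16, 9.91 and 7.35 CPM in fibrosis and at 2.79, 3.36, 3.94, 3.45 and 3.88 in the controls (0.93 ± 0.21, edgeR, adjusted p = 0.00389). Tnfrsf18 stood at 14.6, 9.98, 11.1, 16.4 and 13.8 CPM in fibrosis and at 6.396, 7.37, 7.07, 9.22 and 6.42 in the controls (0.85 ± 0.16, adjusted p = 0.00135). Neither gene's groups overlapped, and fibrosis library 4 was the highest for both. Fibrosis library 4 also had the highest sum of 10 T cell markers, 158 CPM, against 85.4 to 137 in the other fibrosis libraries and 76.3 to 108 in the controls. Of these markers edgeR called 1 higher, Cd8a, with 4 at an unadjusted p under 0.05, and DESeq2 called 3 higher. Averaged over the fibrosis libraries, Lck (47.0 CPM) and Cd8a (38.3 CPM) were the largest parts of this sum. Thy1 came next at 11.7 CPM, while Cd8b1 averaged 1.35, Cd3e 2.25 and Cd3d 3.78 CPM. Which cells the Lck and Cd8a transcripts came from was not tested, so the sum cannot be read as a measure of T cells alone. Cd3e, Cd3d and Cd3g, subunits of the T cell receptor complex, had the largest differences of the 10 T cell markers and were not called by edgeR. They differed by 1.39 ± 0.58, 1.30 ± 0.59 and 1.22 ± 0.51 (edgeR, adjusted p = 0.0787, 0.104 and 0.0803). Cd4 went the other way, at -0.05 ± 0.30 (edgeR, adjusted p = 0.909). Trac (0.88), Cd28 (0.65), Thy1 (0.57), Cd8b1 (0.51) and Lck (0.18) were higher in fibrosis but not called by edgeR. The dendritic cell sum was 522 to 603 CPM in fibrosis and 312 to 359 in the controls. Flt3, Xcr1, Clec9a, Itgax, Ccr7 and Batf3 were called higher. Zbtb46 (-0.19), Siglech (0.51) and Cd209a (0.48) were not (edgeR, adjusted p = 0.155, 0.230 and 0.0885). Averaged over the fibrosis libraries, Ccr7 (260 CPM) and Itgax (116 CPM) were the largest parts of this sum. Which cells these transcripts came from was not tested, so it cannot be read as a measure of dendritic cells alone. The NK cell sum was also highest in fibrosis library 4, at 155 CPM. It was 74.5 to 108 in the other fibrosis libraries and 66.9 to 117 in the controls. The part of T cells, NK cells and dendritic cells in the 4 rises was not tested.

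The remaining costimulatory members were low or did not differ beyond their spread. Cd27 stood at 4.95, 4.00, 3.17, 6.35 and 4.42 CPM in fibrosis and at 4.59, 4.35, 5.74, 5.94 and 5.21 in the controls (-0.18 ± 0.19, edgeR, adjusted p = 0.496). It lies wholly within the span of Vamp1 on the other strand, so its reads are uncertain. Tnfrsf8 (CD30) differed by 0.43 ± 0.25 (adjusted p = 0.190), and its ligand gene Tnfsf8 by 0.52 ± 0.37 (adjusted p = 0.297). Tnfrsf25, the receptor for TL1A, differed by 0.20 ± 0.51 (adjusted p = 0.797). Tnfsf18, the GITR ligand, was the uncalled member with the largest difference, -0.91 ± 0.47 (adjusted p = 0.145), at 0.461 ± 0.309 CPM in fibrosis and 0.892 ± 0.230 in the controls. Cd40lg, the CD40 ligand of T cells, had 4, 1, 4, 2 and 3 counts in fibrosis and 1, 4, 0, 3 and 6 in the controls. Cd70, the CD27 ligand, had 0, 4, 3, 7 and 2 counts in fibrosis and 1, 1, 1, 3 and 3 in the controls. The OX40 ligand gene Tnfsf4 had 16 counts over the fibrosis libraries and 21 over the controls, and the TL1A gene Tnfsf15 had 1 and 11. These 4 ligands were below the filter and were not tested, so for CD40, CD27, OX40 and Tnfrsf25 only the receptor could be compared.

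Among the death receptor and TRAIL genes, the death receptor gene Fas and the ligand TRAIL (Tnfsf10) rose and Tnfrsf21 (DR6) fell. Fas stood at 7.45, 7.95, 7.90, 11.6 and 16.1 CPM in fibrosis and at 5.85, 4.73, 6.44, 4.64 and 3.09 in the controls. The groups did not overlap, and the rise was 1.04 ± 0.25 (edgeR, adjusted p = 0.00551). Its highest values were in fibrosis libraries 4 and 5, and without them the rise was 0.65 (adjusted p = 0.0259). The Fas ligand gene Fasl stood at 1.95, 0.678, 0.299, 1.43 and 0.586 CPM in fibrosis and at 0.328, 0.770, 0.851, 1.53 and 0.969 in the controls. Its libraries varied over a wide range within both groups (0.14 ± 0.48, adjusted p = 0.845).

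Tnfsf10 stood at 7.27, 10.1, 6.999, 6.50 and 7.29 CPM in fibrosis and at 2.62, 4.07, 5.32, 3.22 and 3.33 in the controls. Every fibrosis library was above every control, and the rise was 1.04 ± 0.20 (edgeR, adjusted p = 0.00155). Tnfrsf10b, the mouse death receptor for TRAIL, was not called at -0.33 ± 0.26 (adjusted p = 0.349) and was near 1 CPM in both groups. Tnfrsf22, a TRAIL receptor without a death domain, stood at 7.58, 9.18, 6.16, 6.82 and 7.09 CPM in fibrosis and at 5.30, 4.07, 5.64, 3.45 and 4.85 in the controls. Its groups did not overlap and it rose by 0.66 ± 0.17 (adjusted p = 0.00913). Its neighbours on chromosome 7, Tnfrsf23 (0.24 ± 0.24, adjusted p = 0.454) and Tnfrsf26 (0.36 ± 0.14, adjusted p = 0.0533), were not called. Tnfrsf26 was the single tested member without overlap that missed the threshold. These 3 genes are related copies beside each other and share an antisense gene, so how reads were split among them is uncertain.

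Tnfrsf21, a death domain receptor, stood at 56.7, 52.1, 38.6, 64.2 and 66.9 CPM in fibrosis and at 93.5, 101, 70.8, 79.4 and 83.5 in the controls. The groups did not overlap, and it fell by 0.62 ± 0.14 on the log2 scale (edgeR, adjusted p = 0.00434). The lowest value of each group was again library 3. The ratio of Cd40 to Tnfrsf21 in FPKM was 1.99 to 3.91 in fibrosis and 0.958 to 1.42 in the controls. Cd40 rose and Tnfrsf21 fell, each without overlap, so their ratio had to separate the groups and is no further result.

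In the family of RANK, TWEAK and the remaining receptors, Ngfr and Tnfrsf11a rose and Tnfrsf19 fell. Ngfr encodes the p75 neurotrophin receptor, which is also known from follicular dendritic cells. It stood at 14.8, 14.7, 15.1, 8.17 and 7.29 CPM in fibrosis and at 5.69, 5.94, 7.98, 5.996 and 6.85 in the controls. Fibrosis libraries 1 to 3 were well above every control, whereas library 4 was just above the highest control and library 5 lay within the control range. The rise was 0.89 ± 0.22 (edgeR, adjusted p = 0.00613), and 1.20 without fibrosis libraries 4 and 5. The B cell sums of libraries 1 to 3, 14274 to 16073 CPM, were also above those of libraries 4 and 5, 10718 and 10913. Cr2, a complement receptor of B cells and follicular dendritic cells, was higher as well, by 1.32 (adjusted p = 3.74e-05). Of 8 stromal and endothelial genes, Pecam1 was called higher (225 CPM on average in fibrosis and 167 in the controls) and Cdh5 was not (2.43 and 2.30 CPM, adjusted p = 0.842). The other 6 were below the filter: Col3a1 averaged 0.506 and 0.245 CPM, Col1a1 0.286 and 0.233, and Ccl19, Cxcl13, Madcam1 and Pdpn at most 0.0768. The part of follicular dendritic cells in the level of Ngfr was not tested.

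Tnfrsf11a, which encodes RANK, stood at 5.80, 7.27, 7.18, 9.84 and 9.37 CPM in fibrosis and at 5.96, 5.34, 4.52, 4.41 and 5.94 in the controls. Fibrosis library 1 lay within the control range, and libraries 4 and 5 were the highest. The rise of 0.59 ± 0.17 (edgeR, adjusted p = 0.0177) was not called without libraries 4 and 5, at 0.38 with an adjusted p of 0.0905. The RANK ligand gene Tnfsf11 had 11 counts in fibrosis and 15 in the controls, and the decoy receptor gene Tnfrsf11b (osteoprotegerin) had 6 and 2, too few for a test. Tnfrsf19, a receptor also named TROY, stood at 0.733, 2.16, 1.32, 1.35 and 1.11 CPM in fibrosis and at 2.84, 3.41, 3.72, 3.68 and 4.72 in the controls. This was the largest fall of the family, -1.46 ± 0.26 (adjusted p = 0.000983), at a low level and with no overlap. TWEAK, from Tnfsf12 (-0.31 ± 0.36, adjusted p = 0.530), and its receptor gene Tnfrsf12a (0.29 ± 0.25, adjusted p = 0.397) were not called, and Tnfsf12 shares its locus with the fusion gene noted for Tnfsf13. The difference in Tnfsf12 was -0.91 (adjusted p = 0.0542) without fibrosis libraries 4 and 5, -0.115 without fibrosis library 3 and -0.72 with limma voom.

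**Figure D3:**
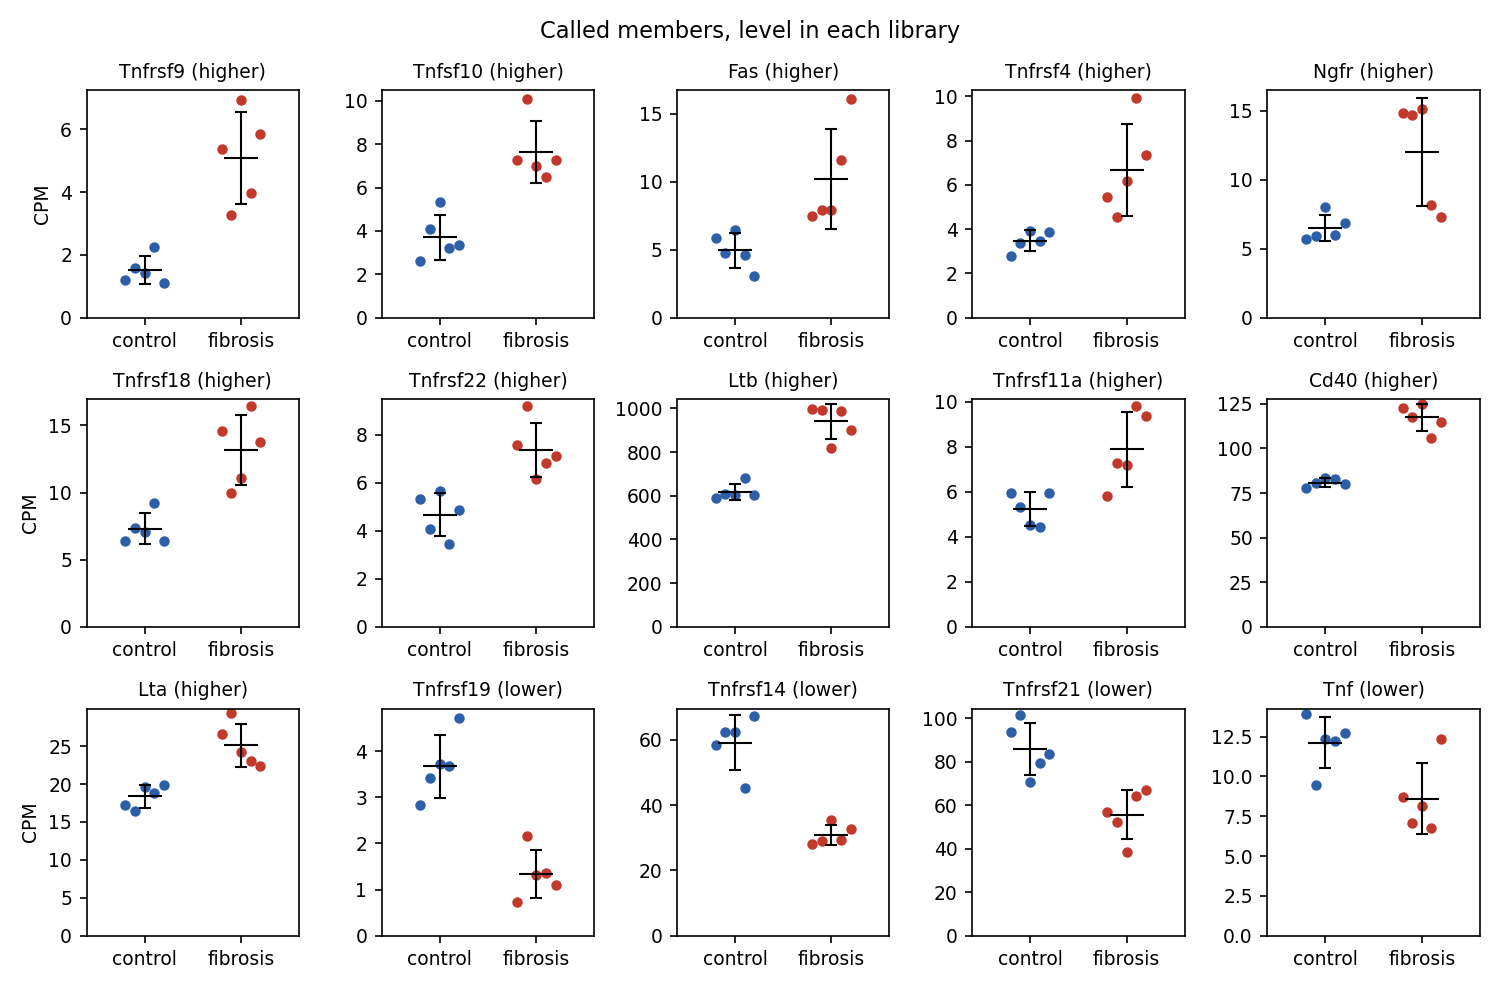
Level of each of the 15 called members in every library, in CPM from 0 (vertical axes differ), with points for libraries and bars for the mean ± SD of 5 libraries. Groups overlap in Tnf, Ngfr and Tnfrsf11a, and do not in the other 12.

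The members did not follow 1 common pattern across the fibrosis libraries. Fas, Tnfsf14 and Tnfrsf11a were highest in libraries 4 and 5, Ngfr in libraries 1 to 3, and Tnfsf10, Tnfrsf22 and Lta in library 2. Ltb, Cd40 and Tnfrsf14 lay beyond every control in all 5 fibrosis libraries, as did Fas, Tnfsf10, Tnfrsf22 and Lta. In all, 12 called members did so. Where a library also stood high or low in markers of another cell type, those sums are plotted below the members.

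**Figure D4:**
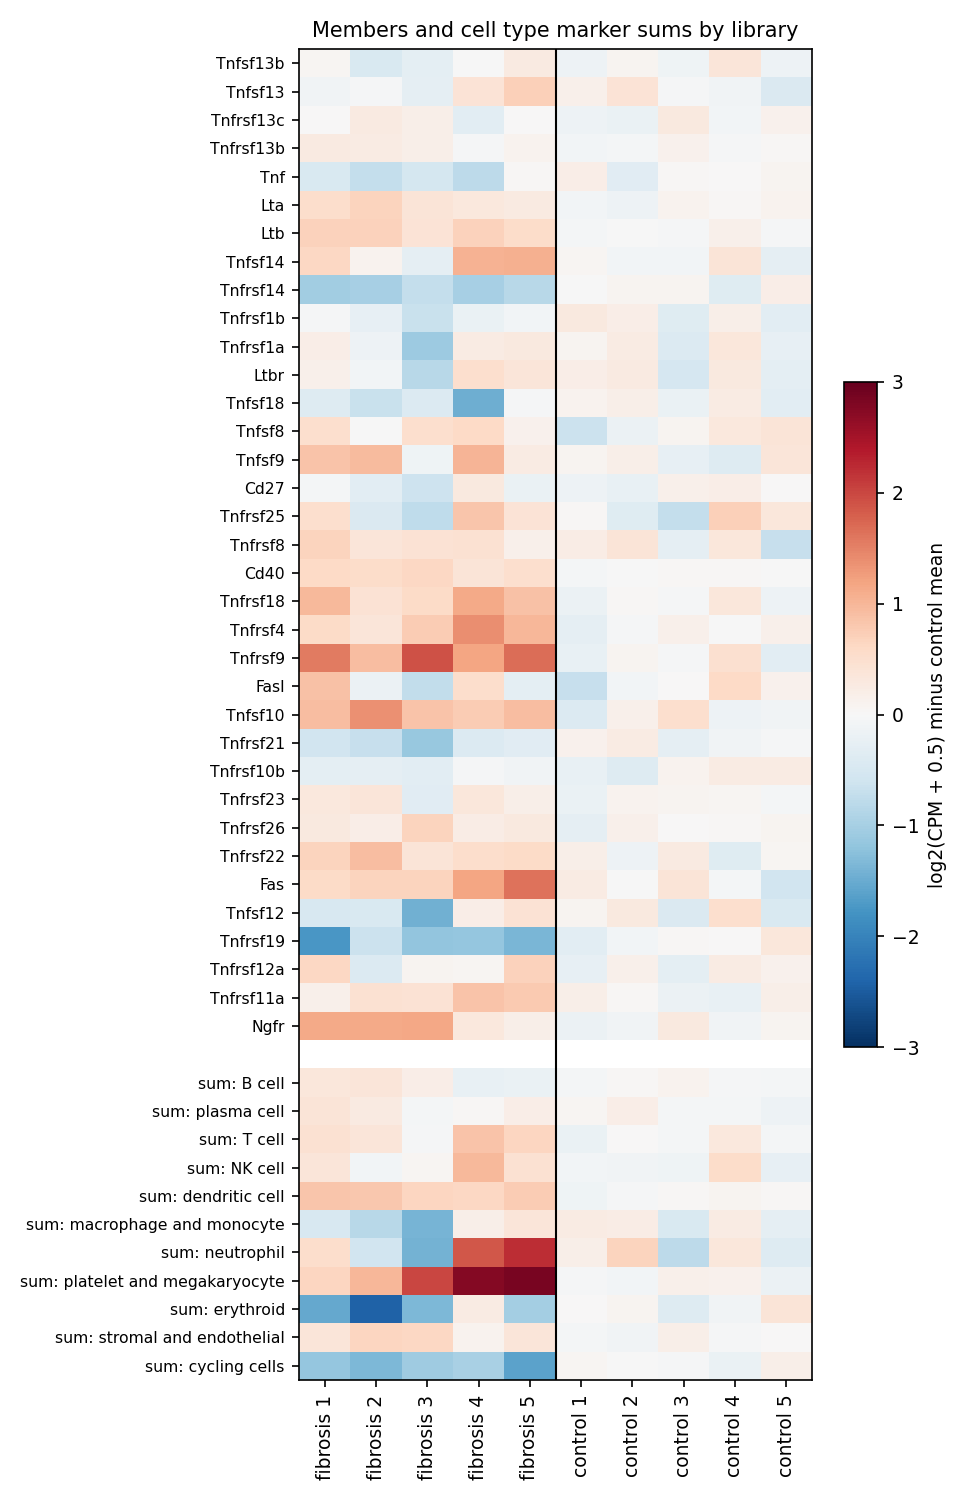
Level of each tested member and summed level of each marker list in the 10 libraries, as log2(CPM + 0.5) minus the mean of the controls. Red is above and blue below the control mean. Cd40 and Ltb are even across the fibrosis libraries, while Ngfr is high in libraries 1 to 3 and the neutrophil and platelet sums are highest in libraries 4 and 5.

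Signalling genes downstream of the receptors were counted from a list of 30 adaptors, kinases, NF-kB subunits and regulators, all of which were tested. Of these, edgeR called 15 higher and 2 lower, beside 18.6% higher and 17.2% lower among all tested genes. The counts were 13 and 2 by DESeq2, 20 and 2 by limma voom, and 19 and 1 by edgeR without fibrosis libraries 4 and 5. The median difference was 0.23 against 0.045 over all tested genes. Traf1, an adaptor that NF-kB induces, had the smallest p and stood at 91.7 to 119 CPM in fibrosis and 40.01 to 49.8 in the controls (1.17 ± 0.10, edgeR, adjusted p = 1.28e-05). Relb, the NF-kB subunit of the alternative pathway that Ltbr, CD40, RANK and the BAFF receptor use, stood at 166 to 184 and 103 to 119 CPM (0.67 ± 0.07, adjusted p = 3.69e-05). Tank (0.61 ± 0.11), Cyld (0.54 ± 0.10) and Birc2 (0.63 ± 0.12), regulators of TRAF and NF-kB signalling, were also higher, with adjusted p of 0.00103, 0.00110 and 0.00159. Cflar, which encodes the inhibitor of caspase activation cFLIP, was higher by 0.44 ± 0.11 (adjusted p = 0.00774). The rest called higher were named after their values were seen. They were Birc3 (0.50 ± 0.13), Traf3ip3 (0.38 ± 0.10), Chuk (0.43 ± 0.12), Traf2 (0.33 ± 0.10) and Traf5 (0.39 ± 0.12). Their adjusted p in edgeR was 0.00790, 0.00914, 0.0123, 0.0191 and 0.0199. Then came Ikbkg (0.25 ± 0.08), Map3k14 (0.32 ± 0.10), Nfkbia (0.28 ± 0.09) and Tnfaip3 (0.28 ± 0.10). For these the adjusted p in edgeR was 0.0265, 0.0296, 0.0302 and 0.0483. Other NF-kB subunits were not called: Nfkb2, the partner of Relb, differed by 0.21 ± 0.11 (adjusted p = 0.172), Nfkb1 by 0.18 ± 0.10 (adjusted p = 0.201) and Rela by 0.21 ± 0.10 (adjusted p = 0.115). Traf3, which restrains the alternative pathway, differed by -0.02 ± 0.13 (adjusted p = 0.923). The 2 lower genes, named after their values were seen, were the death adaptor Fadd (-0.30, adjusted p = 0.0346) and Traf4 (-0.53, adjusted p = 0.0110). Of 4 relatives of the family outside the symbol rule, Relt (0.22, adjusted p = 0.0568) and Eda (-0.62, adjusted p = 0.111) were tested and not called, and Edar and Eda2r were below the filter.

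Many members lie next to other members in the genome. Within 100 kb of each other there were 9 groups of neighbours holding 22 of the 42 members. In 2 of these groups more than 1 member was called: Ltb, Lta and Tnf, which went in both directions, and Tnfrsf4 with Tnfrsf18, which both rose. No member was called in the trio Cd27, Ltbr and Tnfrsf1a on chromosome 6, nor in Tnfsf9, Cd70 (not tested) and Tnfsf14, another trio on chromosome 17.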

How the data were processed

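Gene expression of splenic B cells was measured by poly-A RNA sequencing in 5 fibrosis and 5 control libraries, grouped by the labelled disease state. Nothing in the labels ties a library to its own animal, so p-values reflect spread among these libraries only, and that spread may be technical. The submitters' processing notes name the build GRCm38 (mm10). Not given in the sources used here are aligner, counting program and use of strand. The authors deposited whole-number read counts per gene, which were the input of the test. They also deposited FPKM, used here to compare genes with each other. The members and lists were chosen with earlier results of these data known.

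With edgeR 4.0.16 (R 4.3.3), filterByExpr at its defaults kept 14283 genes. TMM scaled the libraries, and the quasi-likelihood test (robust, no covariate) compared fibrosis with control, with Benjamini-Hochberg adjustment over all tested genes. An adjusted p under 0.05 made a call. The standard error of a log2 difference is its size over the root of F. CPM uses TMM library sizes. Promoter windows came from RefSeq (GRCm38.p6). Total counts of 13439100 to 17954551 per library set the precision, and the biological coefficient of variation was 0.183. No libraries agreed within sampling noise, with a chi-square per degree of freedom of at least 5.81. Values per library are given for called members of at least 2 CPM and a set of main ligands and receptors; other tested members are given by their difference, and untested ones by counts. The alternatives were RLE and library size scaling, no filter, a filter of at least 1 CPM in 5 or more libraries, a Wald test in DESeq2 1.42.0, and limma 3.58.1 (voom with quality weights, and log2 of FPKM plus 1 or 0.1), the replicate number as a block, each library left out, and fibrosis libraries 4 and 5 left out. The code was tested on simulated counts.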

Additional observations from a re-analysis of the deposited data

Results flagged for a closer look

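In 3 of 70 groups of 5 libraries, 1 library stood far from the other 4 by Dixon's test of the highest or lowest value, where chance gives about 1 in 20. Ltb was 683.6 CPM in control library 4, against 589 to 610.2 in the other controls, which is still below every fibrosis library. Tnfrsf26 was 13.7 CPM in fibrosis library 3, against 9.73 to 10.5 in the other fibrosis libraries. Tnfsf10 was 10.1 CPM in fibrosis library 2, against 6.50 to 7.29 in the others, all of which were above the controls.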

How the results depend on the processing

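Over 21 alternatives, 9 to 13 members were called higher and 3 to 5 lower, and all counts stayed within 1.5 times the main ones. Of the 15 called members, 12 kept their call and direction in every alternative run. The exceptions were Tnf, Tnfrsf11a and Ngfr, whose calls were lost on log2 of FPKM plus 1 without a filter (adjusted p of 0.0556, 0.0617 and 0.0655, limma), and Tnf and Tnfrsf11a also as the report gives. Adding 1 to FPKM lowers differences of low genes by construction: Tnfrsf9 was then 0.85, Tnfsf10 0.51, Tnfrsf22 0.37, Ngfr 0.59, Tnfrsf11a 0.29 and Tnfrsf19 -0.48. Of the 20 tested members that were not called, 15 stayed so throughout; Tnfrsf13b, Tnfrsf26, Tnfsf14, Tnfsf9 and Tnfsf18 passed the threshold under 1 to 3 alternatives each. With the replicate block, edgeR called 2677 genes higher and 2534 lower, and 11 and 4 members. Same-numbered libraries correlated at -0.29 to 0.47 in their deviations and the labels tie no number to an animal or batch, so the numbers were not treated as pairs. Only fibrosis libraries 3 and 4 correlated best with their own number.

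Differences that changed sign were all of genes that were not called, and the cause was not tested. With library size scaling, Tnfrsf13c was -0.077 and Ltbr -0.059, and Tnfrsf13c was -0.022 without a filter. With limma voom, Ltbr was -0.182, Tnfrsf25 -0.181 and Tnfsf13 -0.096. Without fibrosis libraries 4 and 5, they were -0.220, -0.325 and -0.261. Leaving out single libraries gave -0.034 to 0.106 for Tnfrsf13c, -0.149 to 0.106 for Tnfrsf1a, -0.065 to 0.204 for Ltbr, -0.264 to 0.020 for Tnfsf13b, -0.087 to 0.529 for Tnfrsf25, -0.033 to 0.416 for Tnfsf13 and -0.289 to 0.426 for Fasl. Members under 2 CPM had standard errors of up to 0.51, so small differences in them were not detectable at this depth.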
